A study of Mus musculus with 8 samples.

Results

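The replication-dependent histone genes encode the linker histone H1 and the core histones H2A, H2B, H3 and H4 that package newly made DNA. They were taken here as every symbol of the count table that starts with Hist1h, Hist2h, Hist3h or Hist4h, which gave 69 genes of the 35976 symbols in the table. By class these were 6 H1, 19 H2A, 19 H2B, 12 H3 and 13 H4 genes, so the set is wider than the core histones alone. It also holds testis-type variants (Hist1h1t, Hist1h2aa and Hist1h2ba) and 2 genes annotated as processed pseudogenes (Hist1h2al and Hist3h2bb-ps). Of the 69 genes, 55 belong to the Hist1 cluster name on chromosome 13, 10 to Hist2 on chromosome 3, 3 to Hist3 on chromosome 11 and 1 to Hist4 on chromosome 6.

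Full-grown mouse oocytes from the ovary were sequenced in 4 groups of 2 libraries, each from a pool of about 20 oocytes with the zona pellucida removed. The groups were oocytes labelled as a double knockout (DKO) of H2A.Z.1 and H2A.Z.2, their H2A.Z controls with the genotype wild type, Mll2 knockout (KO) oocytes, and Mll2 wild-type (WT) oocytes. H2A.Z is a histone H2A variant whose synthesis is not tied to S phase, and MLL2 is a methyltransferase for lysine 4 of histone H3. The sources used here do not give the age, strain or any Cre driver of the animals. Nor do they say whether replicate pools came from different animals, so the p-values cover the spread between libraries only. In pooled cells, fewer cells with a transcript and less transcript per cell cannot be told apart.

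Most replication-dependent histone mRNAs carry no poly(A) tail. They end in a short stem-loop that is bound by SLBP, the stem-loop binding protein, which directs their processing, translation and decay. In most cells they are made in S phase, whereas a growing oocyte stores histone mRNA and protein for the divisions of the early embryo. The labels give the molecule as polyA RNA and the cDNA kit primes on poly(A) tails, so transcripts that end at the stem-loop are largely outside the measurement and the counts here concern polyadenylated forms.

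The stem-loop was searched as paired arms of 6 bases around a loop of 4 bases, with GG opening the first arm, CC closing the second and fixed T and A bases at and beside the loop, on the sense strand in up to 150 bases of the GENCODE M21 transcript after the stop codon. It was found in 46 of the 52 members with 30 or more annotated bases there, against 4 of 20794 other protein-coding genes (0.0192%). It lay 22 to 59 bases after the stop codon, within the 3′ UTR. All 34 stem-loops of H1, H2A, H2B and H3 genes began GGCTC, whereas the 12 stem-loops of H4 genes began GGCCC or GGTCC. The form shared by most members was found in 26 of them. The 8 sites below belong to members described later, in genome build GRCm38 (mm10), with the 16 bases of the stem-loop in capitals.
Hist1h4d at chr13:23581945-23581970 (+): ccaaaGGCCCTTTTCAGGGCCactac
Hist1h4h at chr13:23531453-23531478 (+): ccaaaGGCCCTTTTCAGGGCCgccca
Hist1h4a at chr13:23760795-23760820 (-): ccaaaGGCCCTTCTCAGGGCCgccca
Hist1h4b at chr13:23757361-23757386 (+): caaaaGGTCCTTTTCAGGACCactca
Hist1h3a at chr13:23761885-23761910 (-): ccaaaGGCTCTTTTCAGAGCCacaca
Hist1h2bk at chr13:22036295-22036320 (+): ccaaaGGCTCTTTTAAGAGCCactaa
Hist1h1c at chr13:23739507-23739532 (+): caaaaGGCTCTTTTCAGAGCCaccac
Hist1h1e at chr13:23621777-23621802 (-): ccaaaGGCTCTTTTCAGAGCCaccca

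Some members have an annotated end that holds a poly(A) signal (AATAAA or ATTAAA in the last 50 bases of the GENCODE or RefSeq transcript, sense strand). This was so for 18 members. Of other protein-coding genes with 30 or more bases after the stop codon, 81.0% had the signal, read at GENCODE ends alone. The 2 shares are thus not on the same basis, and the Hist1h2bc signal below was read at its RefSeq end. The members without it include 17 whose annotation could not be searched after a stop codon. Hist1h2bc, the most abundant member, has 2 exons and no stem-loop match in the bases searched after its stop codon. The 4 signals below are those of abundant or changed members, with the 6 bases of the signal in capitals (GRCm38).
Hist1h2bc at chr13:23692452-23692477 (+): atgtatatatAATAAAtgtcatgtaa
Hist1h4h at chr13:23531478-23531503 (+): acattttcttATTAAAagagcgaaca
Hist1h1c at chr13:23740332-23740357 (+): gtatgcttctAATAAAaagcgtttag
Hist1h4a at chr13:23760705-23760730 (-): aaattgagtaAATAAAccttgagtgc

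The libraries held 20309233 to 30087863 counts, and counts were tested with edgeR's quasi-likelihood test over 16847 genes that passed a filter on low counts. Levels are given as CPM, counts brought to the same library total after scaling by edgeR's TMM factors. The targeted genes were examined first. H2afz, which encodes H2A.Z.1, had 7268 and 6682 counts in the libraries labelled DKO, against 463 and 752 counts in the H2A.Z controls. H2afv, which encodes H2A.Z.2, had 285.0 and 294.2 CPM in the libraries labelled DKO, against 107.9 and 107.2 CPM in the controls. Both genes were thus higher under the knockout label, opposite to a loss of transcript. Counts per gene do not show which exons were read, so intact and altered transcripts cannot be told apart. H2afz was also higher in Mll2 KO than in Mll2 WT (log2 fold change 1.28, edgeR adjusted p = 1.21e-05), where H2afv was not called (0.19, adjusted p = 0.165). Each result below is given for the libraries by their labels, as labelled DKO and as H2A.Z controls. Kmt2b, the gene of MLL2, had 8.73 and 9.28 CPM in Mll2 KO libraries, against 41.9 and 42.4 CPM in Mll2 WT libraries, in the direction of its label. Of oocyte markers, Zp3 had a group mean between 2539.1 and 3821.4 CPM, and the whole list of 15 is given at the end. Of the granulosa markers, Amh and Foxl2 stayed at or under 0.163 CPM in every group mean, whereas Fshr, Cyp19a1, Serpine2 and others of that list had counts in every library and are given with the list at the end. Col3a1 and Hba-a1 had 0 counts in all 8 libraries. In their lists, 2 of 13 theca and stroma genes and 5 of 15 blood and endothelial genes had 0 counts throughout.

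The histone genes were a small part of the polyadenylated RNA. They took 0.0203% to 0.0354% of the counts of a library, and 40 to 46 of the 69 members had a count in a given library. Over all libraries 58 members had at least 1 count, 31 had a count in each of the 8 libraries, and 11 had 0 counts throughout. After the filter, 28 members were tested: 4 H1, 5 H2A, 8 H2B, 4 H3 and 7 H4 genes. Because a member can pass the filter through the group in which it is high, counts over these 28 describe the tested members and not the whole family.

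H2B genes supplied 71.5% of the histone counts, H2A genes 12.2%, H4 genes 9.85%, H1 genes 4.62% and H3 genes 1.84%. Within 3 of the classes a single gene made up most of the counts. Hist1h2bc held 88.8% of the H2B counts and 63.5% of all histone counts, Hist1h1a held 86.4% of the H1 counts, and Hist1h2aa held 83.3% of the H2A counts. The H4 counts were more evenly spread, with Hist1h4h, their most abundant gene, at 36.0%. In H3 the most counted gene, Hist1h3g, had 31.7% of the class.

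**Figure D1:**
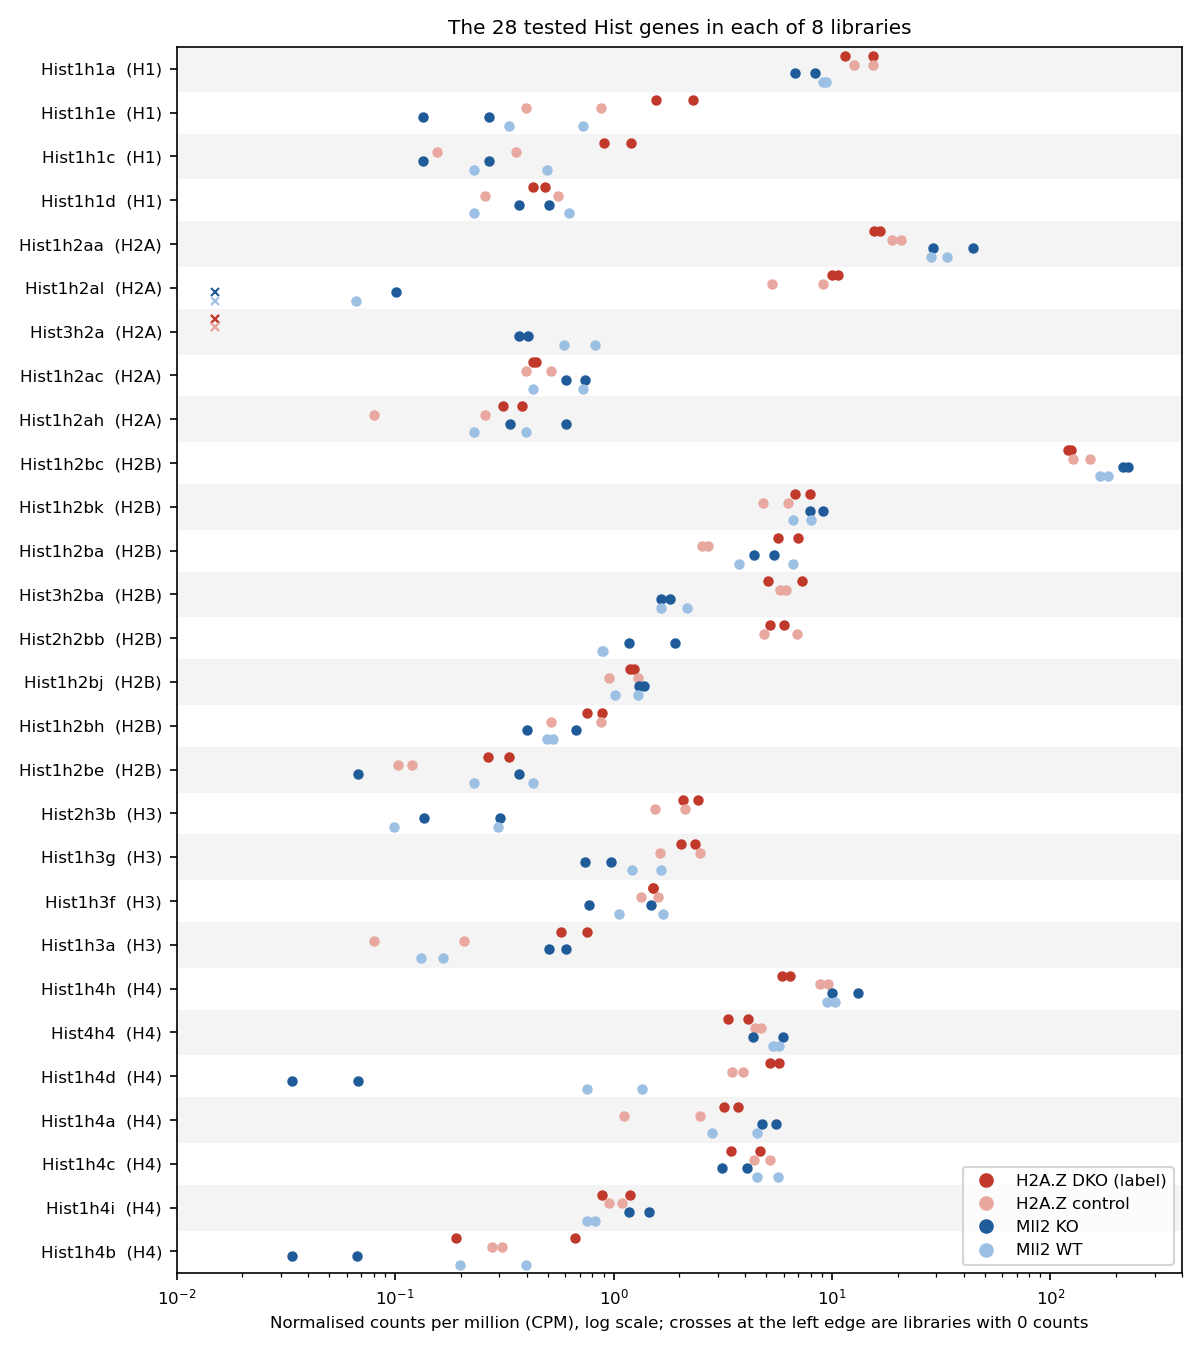
Normalised level (CPM, log axis) of the 28 tested histone genes, grouped by class, with a point for each of the 8 libraries and a cross for a library with 0 counts. Hist1h2bc lies above 100 CPM in every library, Hist1h2aa follows, and most H3 and H1 genes lie under 3 CPM.

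The level was set beside the 3′ end that the annotation gives, and followed no single order. The 18 members with a poly(A) signal at an annotated end held 72.6% of the histone counts. Hist1h2bc alone, whose signal was read at its RefSeq end, held 63.5%. The 46 members with a stem-loop held 17.4% of the counts with a median of 39.0 counts over the 8 libraries. Among them, the 14 that also had a poly(A) signal had a median of 61.0 counts, against 25.5 counts for the 32 that had the stem-loop alone. The 14 with both held 9.03% of the histone counts, and the 32 with the stem-loop alone held 8.35%. The 4 members with a signal and no stem-loop match, Hist1h2bc among them, had a median of 4.5 counts, and 2 of them had 0 counts. Those 2, Hist1h2bq and Hist1h2br, had 2.7% and 11.3% of their 50-base words found in no other transcript. The 2 with neither had a median of 1208 counts, with Hist1h1a at 2212. Their annotation ends 48 (Hist1h1a) and 37 (Hist2h3b) bases after the stop codon. A stem-loop or signal farther on could not be seen, so they say little about genes without either. Hist1h2aa, with 5630 counts, has too little annotated sequence after its stop codon to be searched for the stem-loop or the signal. These are descriptions across genes that share clusters and sequence, and were not tested. Per kilobase of annotated exon, Hist1h2bc reached 105.7 CPM in the libraries labelled DKO, 121.0 CPM in H2A.Z controls, 190.4 CPM in Mll2 KO and 152.3 CPM in Mll2 WT. On the same per-kilobase scale Hist1h2aa reached 41.1, 50.6, 94.2 and 79.4 CPM in those groups, in the same order of groups.

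Sequence shared between members, or with other gene models, limits how reads can be assigned. In 35 members fewer than 50% of the 50-base words of the transcript were found nowhere else among GENCODE transcripts, and these 35 held 7.33% of the histone counts. Of them 8 were tested and 9 had 0 counts throughout, with a median of 8.0 counts. Of the other 34 members 20 were tested and 2 had 0 counts throughout, with a median of 84.0 counts. Detection and level are thus tied to shared sequence. For Hist2h2bb and Hist2h3b this share was 0.0%. Both shared most words with Gm20628, a gene model annotated on the other strand that is not among the counted genes. The sources used here do not say how reads with several matching places were shared out, so single values of these genes are uncertain.

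The 41 members that were not tested were low in every class. Among H2A genes, Hist1h2ag had 54 counts over all 8 libraries and Hist2h2aa1 had 22. Among H2B genes Hist1h2bm had 45 counts, 29 of them in the libraries labelled DKO, and Hist1h2bn had 8. Hist2h3c1 led the H3 genes with 33 counts, followed by Hist1h3c and Hist2h3c2 with 29 each, and Hist2h4 and Hist1h4n led the H4 genes with 56 and 20. The testis linker histone gene Hist1h1t had 2 counts in all, and Hist1h1b had 7.

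Summed over all members, the level overlapped between the groups of the H2A.Z line and did not in the Mll2 line. With 2 libraries a group, values often fall apart without any difference between groups. The share of all genes without overlap was not counted, so overlap describes the values here and throughout and is not a test. All members together had 224.6 and 230.5 CPM in the libraries labelled DKO, against 259.1 and 216.1 CPM in H2A.Z controls. In the Mll2 line they had 321.1 and 313.0 CPM in Mll2 KO libraries, against 251.9 and 284.0 CPM in Mll2 WT libraries. The 2 DKO-labelled libraries fell between their 2 controls, whereas both KO libraries lay above both WT libraries. Without Hist1h2bc, the sums were 106.3 and 87.7 CPM in Mll2 KO libraries and 83.6 and 100.2 CPM in Mll2 WT libraries, which overlap. The H4 sum was 23.6 and 26.2 CPM under the DKO label against 27.8 and 24.1 CPM in H2A.Z controls, and 29.8 and 24.5 CPM in KO against 24.4 and 29.0 CPM in WT.

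**Figure D2:**
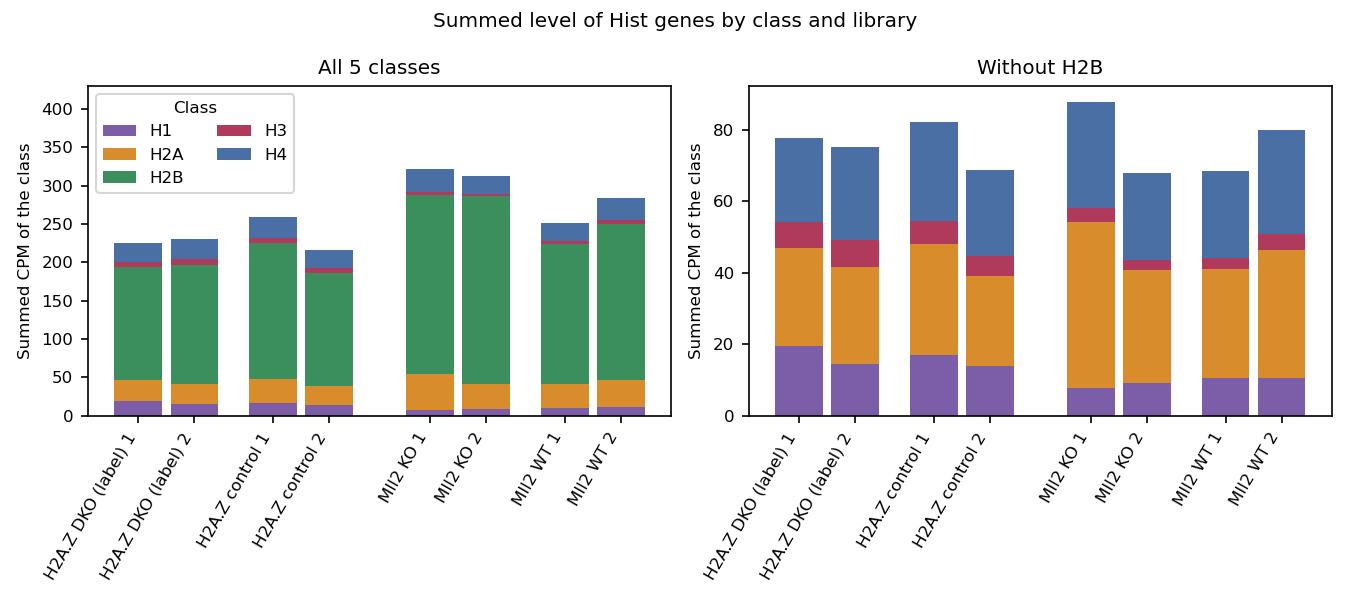
Summed CPM of the members of each class in each library, for all 5 classes (left) and without H2B (right). H2B, chiefly Hist1h2bc, makes up most of each bar, and the Mll2 KO bars at 321.1 and 313.0 CPM stand above the Mll2 WT bars at 251.9 and 284.0 CPM.

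Of the 28 tested members, 5 were higher under the DKO label than in H2A.Z controls and 1 was lower, at an adjusted p under 0.05. The testis-type H2B gene Hist1h2ba, the linker histone genes Hist1h1c and Hist1h1e, the H3 gene Hist1h3a and the H4 gene Hist1h4a were higher, and the H4 gene Hist1h4h was lower. Over all tested genes, 19.4% were higher and 11.5% were lower in this comparison, and 30.9% were called either way, against 21.4% of the tested members. The median log2 fold change of the members was 0.13, beside 0.12 for all tested genes. By class the calls fell on 2 of 4 H1, 1 of 8 H2B, 1 of 4 H3 and 2 of 7 H4 genes. For the 5 tested H2A genes edgeR made 0 calls, 0 had an unadjusted p under 0.05, and DESeq2 made 0 calls. Of these 5, Hist3h2a had 0 counts in every library of the H2A.Z line and could not be called. It passed the filter through the Mll2 line and is counted among the 28.

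Hist1h2ba encodes TH2B, a testis-type H2B that in mouse is also found in oocytes. It had 5.68 and 7.02 CPM in the libraries labelled DKO, against 2.53 and 2.71 CPM in the controls. The groups did not overlap, and the level was 2.41-fold higher (log2 fold change 1.27, SE 0.29, edgeR adjusted p = 0.00374). This call held under all 15 alternatives, with adjusted p between 3.87e-05 and 0.0433. The gene for its partner TH2A, Hist1h2aa, had 16.5 and 15.5 CPM under the DKO label, against 20.6 and 18.9 CPM in the controls. Both DKO-labelled values lay below both controls, with a log2 fold change of -0.30 (SE 0.19) that did not pass the test (edgeR adjusted p = 0.24). It passed when each line was fitted alone and when either Mll2 KO library was left out, with an adjusted p down to 0.0104.

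Hist1h2aa and Hist1h2ba lie head to head on chromosome 13, and their RefSeq promoter windows (250 bases before to 50 after the start, GRCm38) overlap. The window of Hist1h2aa is shown because it covers nearly all of the stretch between the starts of both genes, at chr13:23934187-23934486 on the plus strand, with the TATA box core, the CCAAT box core and the octamer of either strand in capitals.
Hist1h2aa promoter: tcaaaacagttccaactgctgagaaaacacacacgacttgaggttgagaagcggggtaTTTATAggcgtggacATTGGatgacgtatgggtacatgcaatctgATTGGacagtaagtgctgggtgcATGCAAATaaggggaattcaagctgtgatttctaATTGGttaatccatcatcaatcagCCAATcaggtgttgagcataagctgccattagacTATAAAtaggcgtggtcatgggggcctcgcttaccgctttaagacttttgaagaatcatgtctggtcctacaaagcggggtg

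Motifs were counted on both strands in the 62 members with a promoter in the RefSeq table, and matches may overlap each other. The TATA box core TATAAA was present in 56.5% of member promoters and in 13.5% of 32788 other promoters. The CCAAT box core was present in 85.5% of member promoters and in 37.3% of the others. Every promoter of the 6 H1, 18 H2A, 16 H2B and 10 H3 genes held CCAAT, against 3 of 12 of H4 genes. The octamer ATTTGCAT, the site of POU2F1, was present in 7 of 18 H2A and 6 of 16 H2B promoters, and in 1.7% of the others. Windows of head-to-head genes overlap, so a single site can be counted for both genes. This was so for the octamer of Hist1h2aa and Hist1h2ba, and for that of Hist1h2ah and Hist1h2bk. A match is a description of the letters and not of binding.

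Of the linker histone genes, Hist1h1e had 2.31 and 1.57 CPM in the libraries labelled DKO, against 0.879 and 0.398 CPM in the controls. The groups did not overlap, and the log2 fold change was 1.63 (SE 0.54, edgeR adjusted p = 0.0303). Hist1h1c had 1.20 and 0.902 CPM under the DKO label, against 0.155 and 0.359 CPM in the controls, on 27 and 19 counts against 3 and 9. These groups did not overlap either, with a log2 fold change of 1.97 (SE 0.65, edgeR adjusted p = 0.0315). Both are somatic H1 subtypes. The call of Hist1h1e was lost with DESeq2 (adjusted p = 0.0699) and without H2A.Z control replicate 2 (0.251), DKO replicate 1 (0.214) or DKO replicate 2 (0.0566). The call of Hist1h1c was lost with DESeq2 (adjusted p = 0.0847), without any single library of the H2A.Z line (0.0753 to 0.213) and without Mll2 WT replicate 2 (0.0574). The Hist1h1e transcript overlaps that of Hist1h2be on the same strand in the annotation, and Hist1h2be had 6 and 7 counts under the DKO label, against 2 and 3 counts in the controls.

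Hist1h1a, the H1 gene that dominates the class, had 15.4 and 11.5 CPM under the DKO label, against 15.4 and 12.6 CPM in the controls, and the groups overlapped. The other H1 genes together had 4.04 and 2.99 CPM in the libraries labelled DKO, without overlap with the controls, and averaged 3.51 ± 0.74 CPM against 1.41 ± 0.13 CPM in the controls (SD, n = 2 each). Most of this sum was the called genes Hist1h1e (1.94 CPM under the DKO label) and Hist1h1c (1.05 CPM). Hist1h1d overlapped, with 0.488 and 0.427 CPM against 0.259 and 0.558 CPM, and Hist1h1b and Hist1h1t had 7 and 2 counts in all libraries together.

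The H3 gene Hist1h3a had 0.577 and 0.759 CPM in the libraries labelled DKO, against 0.207 and 0.0797 CPM in the controls, on 13 and 16 counts against 4 and 2. The groups did not overlap, and the log2 fold change was 2.24 (SE 0.72, edgeR adjusted p = 0.0277). The call was lost with DESeq2 (adjusted p = 0.0875), without any single library of the H2A.Z line (0.064 to 0.239) and without Mll2 WT replicate 2 (0.0614).

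Of the H4 genes, Hist1h4a had 3.19 and 3.70 CPM in the libraries labelled DKO, against 2.48 and 1.12 CPM in the controls (log2 fold change 0.97, SE 0.35, edgeR adjusted p = 0.0481). The groups did not overlap, but the value rested on the second control. Without H2A.Z control replicate 2 the log2 fold change was 0.47 and the adjusted p 0.435. The call was also lost with RLE size factors (adjusted p = 0.0621), library size alone (0.0824) and DESeq2 (0.0705), without either DKO library (0.11 and 0.198), and without Mll2 WT replicate 2 (0.0902), Mll2 KO replicate 1 (0.051) or Mll2 KO replicate 2 (0.0515). Hist1h4h, the most abundant H4 gene, had 6.43 and 5.93 CPM under the DKO label, against 9.57 and 8.85 CPM in the controls. Both DKO-labelled values lay below both controls (log2 fold change -0.57, SE 0.20, edgeR adjusted p = 0.0417). The call was lost without any single library of the H2A.Z line (adjusted p 0.118 to 0.195) and without Mll2 WT replicate 1 (0.0624), and the fit with a replicate block gave an adjusted p of 0.0528.

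The other H4 genes with 5 CPM or more in a group were not called. Hist1h4d had 5.19 and 5.74 CPM under the DKO label, against 3.93 and 3.47 CPM in the controls, without overlap (log2 fold change 0.57, SE 0.29, edgeR adjusted p = 0.156). Hist1h4c had 3.46 and 4.70 CPM under that label, with 5.22 and 4.38 CPM in control libraries, and Hist4h4 had 3.33 and 4.13 CPM against 4.71 and 4.42 CPM. The values of Hist1h4c overlapped, and those of Hist4h4 did not.

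Hist1h2bc, the main H2B gene, had 120.4 and 124.0 CPM in the libraries labelled DKO, against 152.3 and 127.3 CPM in the controls (log2 fold change -0.19, SE 0.11, edgeR adjusted p = 0.192). Its DKO-labelled values lay below both controls, by a small margin for the second. With library size alone, with each line fitted alone and without either Mll2 KO library it was called lower, at an adjusted p down to 0.00186. Hist1h2bk had 6.74 and 7.93 CPM against 6.26 and 4.82 CPM, Hist3h2ba had 5.10 and 7.26 CPM against 6.15 and 5.78 CPM, and Hist2h2bb had 5.19 and 6.03 CPM against 6.88 and 4.86 CPM. The values of Hist1h2bk did not overlap, and those of Hist3h2ba and Hist2h2bb did. The pseudogene Hist1h2al had 226 and 225 counts against 176 and 133 counts. None of these 4 passed the test, and the 11 other tested members with counts in this line had log2 fold changes from -0.06 to 1.37 with adjusted p from 0.302 to 0.973.

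**Figure D3:**
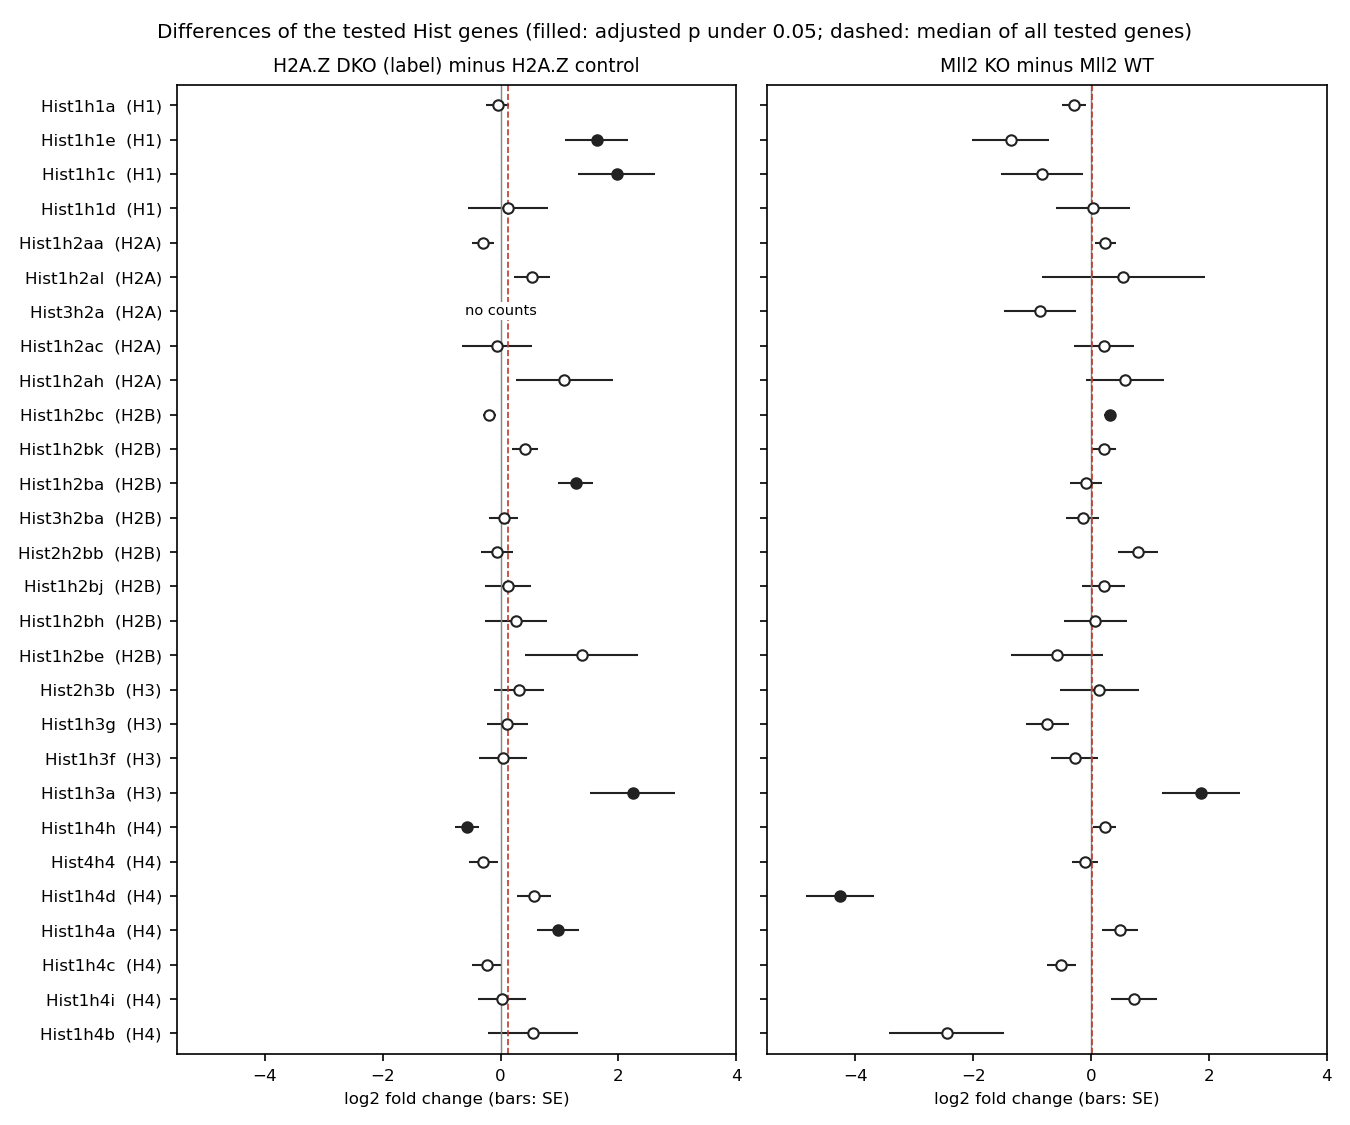
Log2 fold change with its SE for the 28 tested members, in the libraries labelled DKO minus H2A.Z controls (left) and in Mll2 KO minus Mll2 WT (right). Filled points passed an edgeR adjusted p of 0.05, the dashed line is the median of all tested genes, and Hist1h4d at -4.26 in Mll2 KO stands farthest from it.

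In Mll2 KO oocytes, 2 of the 28 tested members were higher than in Mll2 WT oocytes and 1 was lower. The higher genes were the H2B gene Hist1h2bc and the H3 gene Hist1h3a, and the lower gene was the H4 gene Hist1h4d. Over all tested genes 14.4% were higher and 16.2% lower in this comparison, and 30.6% were called either way, against 10.7% of the tested members. The median log2 fold change of the members was 0.05, beside 0.02 for all tested genes. By class the calls fell on 1 of 8 H2B, 1 of 4 H3 and 1 of 7 H4 genes. For the 4 tested H1 genes and the 5 tested H2A genes edgeR made 0 calls, 0 had an unadjusted p under 0.05, and DESeq2 made 0 calls. Of these, Hist1h2al had 0 and 3 counts in KO libraries, against 2 and 0 counts in WT libraries, which left little room for a call.

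Hist1h4d had 0.0674 and 0.0336 CPM in Mll2 KO libraries, against 0.760 and 1.35 CPM in Mll2 WT libraries. In counts this was 2 and 1 in KO libraries, against 23 and 41 in WT libraries, so the KO level rests on 3 counts. The ratio of summed counts per depth was 20.9-fold lower in KO, with an exact 95% counting interval of 6.85 to 104.1. The fitted log2 fold change was -4.26 (SE 0.58, edgeR adjusted p = 6.01e-05), and the call held under all 15 alternatives, with adjusted p between 2.58e-10 and 0.00306. Hist1h4d is a gene of a single exon at chr13:23581598-23582735 on the plus strand, and 89.8% of the 50-base words of its transcript were found in no other transcript.

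Its RefSeq promoter window, at chr13:23581318-23581617 on the plus strand (GRCm38), is shown because Hist1h4d was among the few H4 genes with a CCAAT match, with motifs of either strand in capitals.
Hist1h4d promoter: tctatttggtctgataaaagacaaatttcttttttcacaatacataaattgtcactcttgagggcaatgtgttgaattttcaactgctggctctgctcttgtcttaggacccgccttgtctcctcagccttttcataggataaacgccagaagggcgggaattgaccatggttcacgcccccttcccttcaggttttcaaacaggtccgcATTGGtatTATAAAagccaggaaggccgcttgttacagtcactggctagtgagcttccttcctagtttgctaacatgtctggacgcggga

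The remaining H4 genes were not called in Mll2 KO. Hist1h4h had 13.2 and 9.95 CPM in KO libraries, against 9.45 and 10.3 CPM in WT libraries, and Hist1h4a had 4.79 and 5.54 CPM against 2.81 and 4.52 CPM. Hist1h4c had 4.08 and 3.13 CPM in KO libraries, against 4.53 and 5.67 CPM in WT libraries, and Hist4h4 had 5.97 and 4.37 CPM against 5.36 and 5.74 CPM. The groups overlapped for Hist1h4h and Hist4h4 and did not for Hist1h4a, which was higher in KO, or for Hist1h4c, which was lower. Hist1h4b had 1 and 2 counts in KO libraries, against 6 and 12 counts in WT libraries, with a log2 fold change of -2.45 (SE 0.98) that did not pass the test (edgeR adjusted p = 0.0691).

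Hist1h2bc had 214.9 and 225.3 CPM in Mll2 KO libraries, against 168.3 and 183.8 CPM in Mll2 WT libraries. Both KO values lay above both WT values, a 1.25-fold difference (log2 fold change 0.32, SE 0.11, edgeR adjusted p = 0.0328). The call was lost when the Mll2 line was fitted alone (adjusted p = 0.0918), without Mll2 WT replicate 1 (0.242), Mll2 WT replicate 2 (0.0867) or Mll2 KO replicate 2 (0.0649), and without either DKO library (0.0653 and 0.0652). Hist1h3a had 0.506 and 0.605 CPM in KO libraries, against 0.132 and 0.165 CPM in WT libraries, on 15 and 18 counts against 4 and 5. The groups did not overlap (log2 fold change 1.87, SE 0.67, edgeR adjusted p = 0.0433), but the call held in only 2 of 14 alternatives and was lost without any single library, at adjusted p from 0.0585 to 0.204.

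Among the other H2A and H2B genes, Hist1h2aa had 44.3 and 29.1 CPM in Mll2 KO libraries, against 28.4 and 33.6 CPM in Mll2 WT libraries, and Hist1h2ba had 4.38 and 5.41 CPM against 3.74 and 6.66 CPM. The groups overlapped for both. Hist1h2aa was called higher without Mll2 KO replicate 2 (log2 fold change 0.48, edgeR adjusted p = 0.0117). Hist1h2bk had 7.89 and 9.14 CPM in KO libraries, against 6.61 and 8.01 CPM in WT libraries, and Hist3h2ba had 1.82 and 1.65 CPM against 1.65 and 2.18 CPM. Hist2h2bb had 1.92 and 1.18 CPM in KO libraries, against 0.893 and 0.890 CPM in WT libraries, without overlap and without passing the test (edgeR adjusted p = 0.0857). It was called with library size alone and without Mll2 KO replicate 2, at adjusted p down to 0.0277.

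The linker histone genes were low in the Mll2 line. Hist1h1a had 6.78 and 8.37 CPM in KO libraries, against 9.09 and 9.40 CPM in WT libraries, with both KO values below both WT values and no call (edgeR adjusted p = 0.293). Hist1h1e had 0.270 and 0.134 CPM in KO libraries, against 0.331 and 0.725 CPM in WT libraries, and Hist1h1c had 0.270 and 0.134 CPM against 0.496 and 0.231 CPM. Hist1h1e did not overlap and Hist1h1c did. The 12 tested members that stayed under 5 CPM in every group mean and had no call under the DKO label or in Mll2 KO had log2 fold changes from -2.45 to 0.73 in this comparison, with adjusted p from 0.0691 to 0.979.

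**Figure D4:**
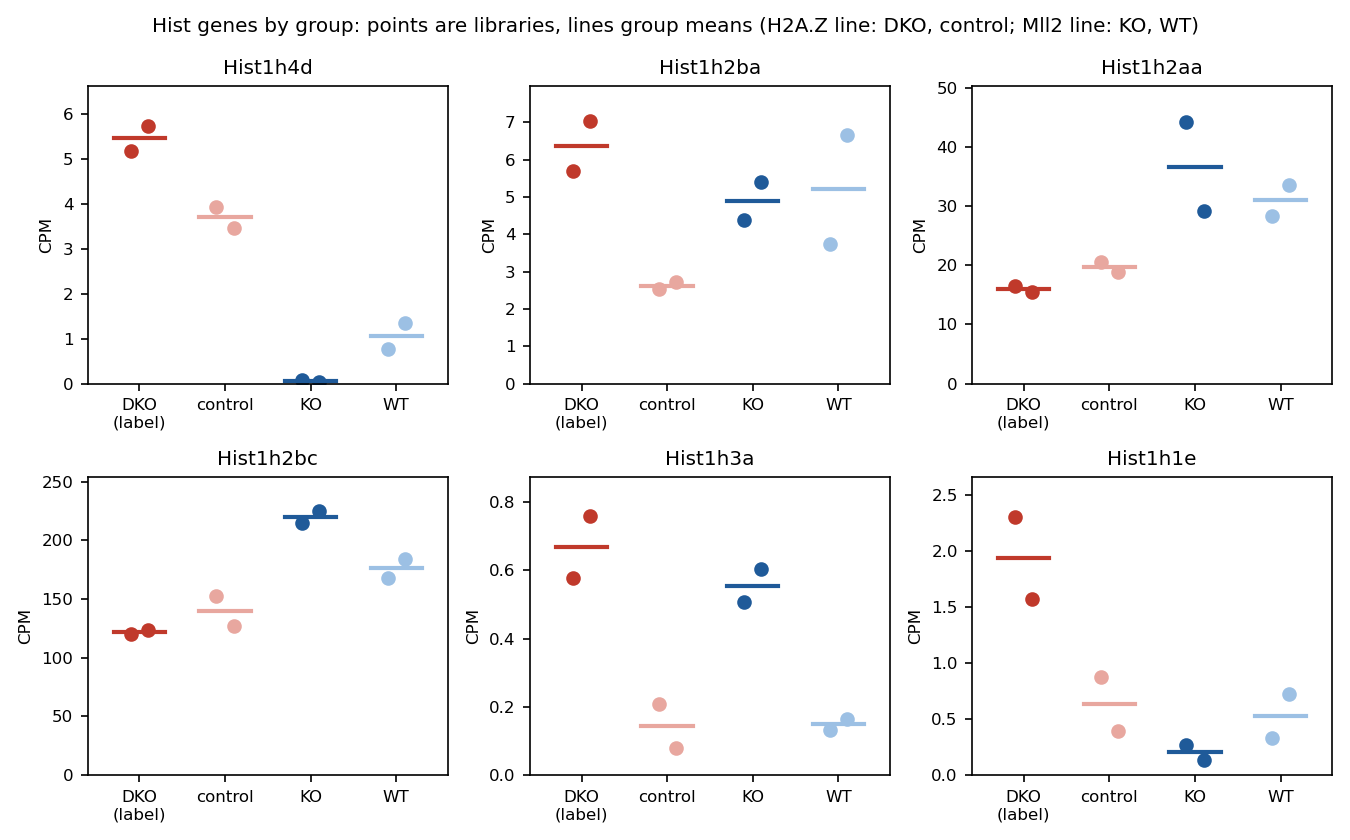
Level (CPM) of 6 histone genes in each library by group, with a line at the group mean. Hist1h4d is near 0 in both Mll2 KO libraries, and Hist1h2ba lies at 5.68 and 7.02 CPM in the libraries labelled DKO, above both H2A.Z controls.

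The difference between the effects in the 2 lines was tested as the log2 change under the DKO label minus that in Mll2 KO. Of all tested genes 12.9% were called higher and 6.68% lower in this contrast, against 3 and 1 of the 28 tested members. The difference was 4.83 (SE 0.66, edgeR adjusted p = 0.000132) for Hist1h4d, and it held under all 14 alternatives. It was 2.995 (SE 0.84, adjusted p = 0.0199) for Hist1h1e, 1.36 (SE 0.39, adjusted p = 0.0236) for Hist1h2ba and -0.52 (SE 0.15, adjusted p = 0.0266) for Hist1h2bc, all by edgeR. The difference for Hist1h2ba was lost with library size alone (adjusted p = 0.0652), without either H2A.Z control (0.0803 and 0.0792), without DKO replicate 2 (0.0995) and without Mll2 WT replicate 2 (0.26). That for Hist1h1e was lost without H2A.Z control replicate 2 (adjusted p = 0.093), DKO replicate 1 (0.0935) or Mll2 WT replicate 2 (0.164). That for Hist1h2bc was lost without H2A.Z control replicate 1 (0.177), either DKO library (0.123 and 0.0877) or Mll2 WT replicate 1 (0.131).

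The group labelled H2A.Z control and the Mll2 WT group also differed in histone genes. H2afz and H2afv were higher under the DKO label than in its controls, so the genotype of these controls rests on the label alone. This contrast, H2A.Z control minus Mll2 WT, was added after the values were seen, and colony, strain background and library batch cannot be told apart in it. Of the 28 tested members 6 were higher and 5 lower, 39.3% in all, against 19.0% higher, 25.3% lower and 44.3% either way of all tested genes. The pseudogene Hist1h2al had 176 and 133 counts in H2A.Z controls, against 2 and 0 counts in Mll2 WT libraries, and the DKO-labelled and Mll2 KO libraries had 226 and 225 against 0 and 3 counts. All 4 libraries of the H2A.Z line were thus high, and all 4 of the Mll2 line at or near 0. Hist1h2al is annotated at chr13:51202727-51203065 on the minus strand, outside the Hist1 cluster. Of its 50-base words 32.4% were found in no other transcript.

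The H2A gene Hist3h2a, on chromosome 11, showed the opposite pattern. It had 0 counts in all 4 libraries of the H2A.Z line, against 25 and 18 counts in Mll2 WT libraries, and 12 and 11 counts in Mll2 KO libraries. With a floor of 3 counts put in place of 0 for the 2 H2A.Z controls, the ratio to Mll2 WT was 10.5-fold lower. This is not a lower bound. The exact counting interval for the observed counts, at the confidence level given for Hist1h4d, began at 8.19-fold lower. Hist3h2a was called lower in H2A.Z controls than in Mll2 WT (edgeR adjusted p = 0.000737). Its annotated exon overlaps Trim17 on the same strand, and Trim17 had 4.55 and 3.55 CPM in H2A.Z controls, against 7.47 and 7.62 CPM in Mll2 WT libraries.

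Higher in H2A.Z controls were also Hist2h2bb, with 6.88 and 4.86 CPM against 0.893 and 0.890 CPM in Mll2 WT libraries, and Hist3h2ba, with 6.15 and 5.78 CPM against 1.65 and 2.18 CPM. Hist2h3b, the H3 gene next to Hist2h2bb, had 2.12 and 1.55 CPM in H2A.Z controls, against 0.0992 and 0.297 CPM in Mll2 WT libraries. The log2 differences were 2.71 (SE 0.32) for Hist2h2bb, 1.64 (SE 0.27) for Hist3h2ba and 3.17 (SE 0.54) for Hist2h3b, without overlap between the groups. Hist1h4d was also higher in H2A.Z controls, with 3.93 and 3.47 CPM against 0.760 and 1.35 CPM (log2 difference 1.80, SE 0.32, edgeR adjusted p = 0.000312). The calls of these 4 genes, of Hist1h2al and of Hist3h2a held under every alternative that gave a value, 12 for Hist3h2a and 14 for each of the others. The alternatives refit the same libraries and are not separate support. A member can also pass the filter through the line in which it is high, as Hist1h2al and Hist3h2a did. Hist1h1a was higher too (log2 difference 0.59), and Hist1h2ba (-0.98), Hist1h4a (-1.06), Hist1h2aa (-0.65) and Hist1h2bc (-0.33) were lower. These 5 calls were each lost without a library: without Mll2 WT replicate 2 the adjusted p was 0.0995 for Hist1h1a, 0.235 for Hist1h2ba, 0.216 for Hist1h4a, 0.0701 for Hist1h2aa and 0.127 for Hist1h2bc. Without H2A.Z control replicate 2 it was 0.0581 for Hist1h2ba, 0.288 for Hist1h4a, 0.0781 for Hist1h2aa and 0.27 for Hist1h2bc. Without H2A.Z control replicate 1 it was 0.205 for Hist1h1a and 0.0695 for Hist1h2ba, and without Mll2 WT replicate 1 it was 0.118 for Hist1h1a.

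**Figure D5:**
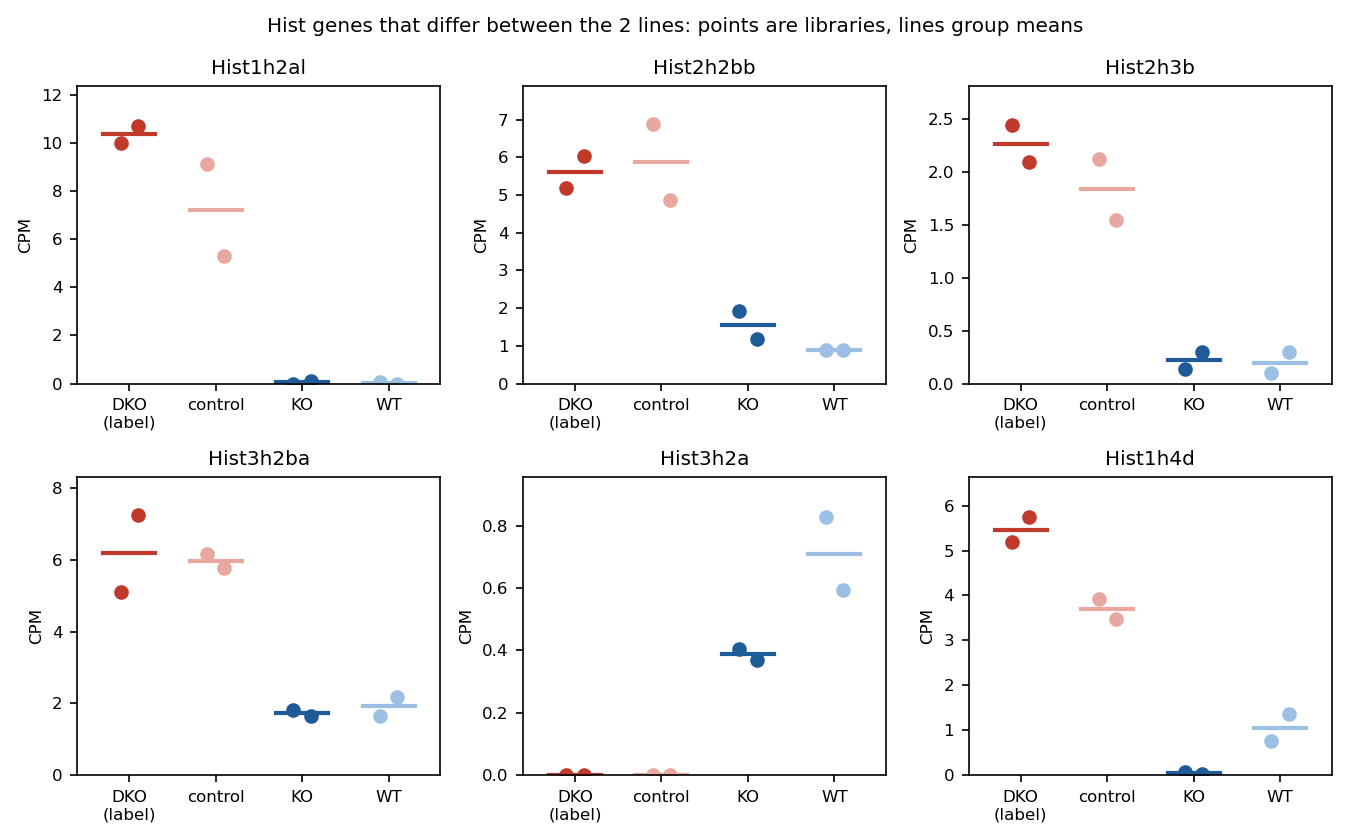
Level (CPM) of 6 histone genes that differed between the H2A.Z line (DKO label and control) and the Mll2 line (KO and WT), with a point per library and a line at the group mean. Hist1h2al, Hist2h2bb, Hist2h3b and Hist3h2ba are high in all 4 libraries of the H2A.Z line, and Hist3h2a has 0 counts in them.

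Slbp, the stem-loop binding protein gene, had 1108.3 and 1282.4 CPM in the libraries labelled DKO, against 1442.7 and 1503.4 CPM in the controls (log2 fold change -0.30, SE 0.15, edgeR adjusted p = 0.14). In the Mll2 line it had 1151.4 and 765.5 CPM in KO libraries, against 1224.4 and 1251.7 CPM in WT libraries (log2 fold change -0.37, SE 0.15, edgeR adjusted p = 0.0726). The values under the DKO label lay below those of H2A.Z controls, and the KO values below the WT values, without passing the test. Npat, the activator of histone gene transcription in S phase, had group means of 12.6 and 13.4 CPM under the DKO label and in controls, and 21.3 and 20.3 CPM in KO and WT. Eri1, the exonuclease that trims histone mRNA ends, had 55.2 and 47.3 CPM, and 52.6 and 55.4 CPM, in the same groups. Neither was called in either comparison.

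Of a list of 39 genes of histone mRNA synthesis, processing and decay, all tested, 10 were higher and 2 lower under the DKO label (median log2 fold change 0.19), and 5 were higher and 6 lower in Mll2 KO (median -0.01). Over all tested genes 19.4% were higher and 11.5% lower under the DKO label, and 14.4% higher and 16.2% lower in Mll2 KO, with medians of 0.12 and 0.02. Under the DKO label the smallest p-values belonged to Wdr33 (log2 fold change 0.73), which reads the poly(A) signal, Upf1 (0.68), a helicase of mRNA decay, and Zfp473 (-0.78), a component of histone pre-mRNA processing. They were followed by Pou2f1 (0.65), the octamer-binding factor, Lsm1 (0.55), of the decapping complex, and Papola (0.48), a poly(A) polymerase. In Mll2 KO they belonged to Lsm1 (1.08), Mif4gd (-1.17), a partner of SLBP in translation, Ddx19b (-1.23), Cpsf2 (-0.75), of the cleavage complex, Srrt (0.89) and Xrn1 (-0.56), an exonuclease. Their edgeR adjusted p ran from 9.86e-05 to 0.00325 under the DKO label and from 6.12e-06 to 0.00523 in Mll2 KO.

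Of 28 histone chaperone genes, all tested, 5 were higher and 4 lower under the DKO label (median log2 fold change 0.10), and 4 were higher and 4 lower in Mll2 KO (median 0.02). The shares of all tested genes were again 19.4% and 11.5% under the DKO label, and 14.4% and 16.2% in Mll2 KO. Chaf1b, a subunit of the assembly factor CAF-1 that deposits replication-coupled H3 and H4, had 32.5 CPM under the DKO label, against 58.0 CPM in controls (log2 fold change -0.84, edgeR adjusted p = 0.000441). In the Mll2 line it had 33.1 CPM in KO, against 49.0 CPM in WT (log2 fold change -0.57, edgeR adjusted p = 0.00638). Nap1l3, of the NAP1 family, was lower in both lines (-1.39 under the DKO label and -1.21 in Mll2 KO), and Nap1l1 was higher in both (0.47 and 0.57). Tonsl (-1.49), Asf1b (-0.44) and Supt6 (0.49) were called under the DKO label, and Npm1 (0.36), Npm2 (-0.38) and Supt16 (-0.46) were among the calls in Mll2 KO. Of 32 DNA replication genes, all tested, 6 were higher and 8 lower under the DKO label (median log2 fold change -0.05), beside 19.4% and 11.5% of all tested genes. In Mll2 KO 10 of them were higher and 8 lower (median 0.05), beside 14.4% and 16.2%.

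Markers of oocytes and of other cell types were followed as lists. Of 14 oocyte markers tested, 2 were higher and 0 lower under the DKO label, beside 19.4% and 11.5% of all tested genes. In Mll2 KO 0 were higher and 4 lower (median log2 fold change -0.16), beside 14.4% and 16.2%. The oocyte list summed to 27797.5 and 24935.5 CPM in KO libraries, against 28349.6 and 33860.9 CPM in WT libraries. The summed level of 20 granulosa genes was 733.6 and 672.2 CPM under the DKO label, against 654.2 and 653.9 CPM in H2A.Z controls, and 763.1 and 874.1 CPM in KO against 1104.5 and 989.3 CPM in WT. Serpine2 and Hmgcs1 made up most of this sum, with group means of 316.4 and 239.6 CPM under the DKO label, 312.3 and 234.8 CPM in H2A.Z controls, 369.6 and 340.1 CPM in KO, and 567.9 and 378.9 CPM in WT. Of the 13 granulosa genes tested, 4 were higher under the DKO label (Fshr, Cyp11a1, Has2 and Nr5a2) and 2 lower (Fst and Gja1), with a median log2 fold change of 0.03. In Mll2 KO 3 were higher (Fshr, Gja1 and Nr5a2) and 3 lower (Cyp19a1, Kitl and Serpine2), with a median of 0.75. Fshr, the receptor of follicle-stimulating hormone, had 18.7 and 18.9 CPM under the DKO label, against 1.29 and 0.598 CPM in H2A.Z controls (log2 fold change 4.36, edgeR adjusted p = 1.5e-07). In the Mll2 line Fshr had 7.25 and 7.70 CPM in KO, against 0.992 and 0.594 CPM in WT (log2 fold change 3.23, edgeR adjusted p = 1.05e-06). The 13 theca and stroma genes summed to 3.71 to 7.45 CPM and the 15 blood and endothelial genes to 22.6 to 45.7 CPM in a library. The granulosa sum thus lay above both H2A.Z controls under the DKO label and below both WT libraries in Mll2 KO, where the median of its tested genes had the opposite sign, and the part of this list in the histone gene results was not tested.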

How the data were processed

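The deposited table holds whole-number counts per gene symbol for the 8 libraries, without normalisation by the authors. The tools named are RSEM 1.3.1, STAR 2.7.3 and Trim Galore 0.6.4, on build mm10, per the submitters' processing notes. The sources used here do not give the annotation, the use of strand or the rounding of estimates, so overlapping genes and reads shared between near-identical histone genes may be assigned in different ways. Library preparation used the SMART-Seq v4 and Nextera XT kits from 200 pg of cDNA, per the labels' protocols.

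Here, genes were filtered with filterByExpr, scaled by TMM and tested with edgeR 4.0.16 in R 4.3.3 (quasi-likelihood, robust, 4 group means fitted to all 8 libraries), with Benjamini-Hochberg adjustment over all 16847 tested genes and a threshold of 0.05. The fit shared 1 spread per gene over all groups, while the replicate spread relative to counting error ran from 4.67 in H2A.Z controls to 36.8 in Mll2 KO (chi-square per degree of freedom). Alternatives were RLE size factors, library size alone, DESeq2 1.42.0, no filter, a filter of 1 CPM in 2 libraries, each line alone, each library left out and a replicate block. Scripts were tested on simulated data. Exact binomial intervals cover counting error only.

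Members were named with values in every library where tested and either at 5 CPM or more in a group mean or called under the DKO label or in Mll2 KO. Hist3h2a, Hist2h3b and Hist1h4b were named outside that rule after their values were seen. From the histone mRNA and chaperone lists, the called genes with the smallest p were named, up to 6 per comparison. The members and lists were chosen with earlier results of these data known. Stem-loops were read from GENCODE M21 transcripts, and poly(A) signals in them at GENCODE or RefSeq ends. Promoters were read from RefSeq (GRCm38.p6), for which all 69 members were matched and 62 had a window.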

Additional observations from a re-analysis of the deposited data

Results flagged for a closer look

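The change under the DKO label differed from the change in Mll2 KO for 4 histone genes by the interaction contrast of edgeR. The difference in log2 fold change was 4.83 for Hist1h4d, 2.995 for Hist1h1e, 1.36 for Hist1h2ba and -0.52 for Hist1h2bc. Hist1h4d had 238 counts in the libraries labelled DKO against 163 in H2A.Z controls, and 3 counts in Mll2 KO against 64 in Mll2 WT. Groups of 2 libraries are too small for a check of single outlying libraries.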

How the results depend on the processing

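Under the DKO label and in Mll2 KO, the calls that held under every alternative run were Hist1h2ba higher under the DKO label and Hist1h4d lower in Mll2 KO. Members higher under the DKO label numbered 5, against 1 with DESeq2, 3 with a filter of 1 CPM in 2 libraries, and 1 to 5 with a library left out. Members lower there numbered 1, against 2 with library size alone, 3 with each line alone, and 0 to 3 with a library left out. Members higher in Mll2 KO numbered 2, against 1 with DESeq2, without a filter and with the 1 CPM filter, 0 with each line alone, and 0 to 2 with a library left out. The difference between the effects gave 3 higher members (1 to 4 with a library left out) and 1 lower member, against 2 with RLE, DESeq2 and the 1 CPM filter, 3 with library size alone, and 0 to 4 with a library left out. The contrast of the control groups gave 6 higher members (5 to 6 with a library left out) and 5 lower, against 3 with DESeq2 and 1 to 5 with a library left out. The cause of these shifts was not tested.

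The replicate differences correlated at 0.0395 in the H2A.Z line and -0.0221 in the Mll2 line over tested genes. This correlation cannot tell whether libraries of the same replicate number were paired. With a replicate block, 5 members were higher and 0 lower under the DKO label, 1 higher and 1 lower in Mll2 KO, and 2 were lower in H2A.Z controls than in Mll2 WT.

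Directions that reversed belonged to members without a call by the main fit in the same comparison. Under the DKO label Hist3h2ba was -0.074 with library size alone and with each line alone, against 0.05. With a library left out, Hist3h2ba ran from -0.22 to 0.29, Hist1h1a from -0.28 to 0.14 and Hist2h2bb from -0.30 to 0.21. In Mll2 KO, Hist1h2ba was 0.044 and Hist4h4 0.019 with library size alone. With a library left out, Hist1h2ba ran from -0.45 to 0.38, Hist3h2ba from -0.33 to 0.05, Hist1h2aa from -0.079 to 0.476, Hist1h2al from -2.99 to 3.49 and Hist4h4 from -0.332 to 0.064.

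Scaling moved the median of all genes. Under the DKO label it was 0.12 with TMM, 0.08 with RLE and 0.00 with library size alone, with 62.9%, 56.9% and 45.5% of calls higher. In Mll2 KO it was 0.02, 0.04 and 0.14, with 47.1%, 49.5% and 62.9% of calls higher. Apart from Hist1h1a, the tested H1 and H3 members had at most 55 counts in a library, which limits the precision of their values.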
